A study of Sus scrofa with 16 samples.

Results

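The insulin-like growth factor (IGF) axis was described through 5 of the 3875 genes counted in cultured porcine satellite cells (SCs), the stem cells of skeletal muscle. The 5 genes, *IGF1*, *IGFBP6*, *IGFBP7*, *GRB10* and *FOXO1*, were chosen by name, with earlier results of these data known. SCs came from the intercostal muscle of 3-day-old male piglets, 4 wild-type (WT) and 4 of a Duchenne muscular dystrophy (DMD) model that lacks exon 52 of *DMD*, the dystrophin gene. In both genotypes CD31+ and CD45+ cells had been depleted and cells carrying integrin-β1, NCAM1 or M-cadherin selected. Each animal gave a sample under proliferation (PROL; passage 6, Ham's F10 with 20% fetal bovine serum and basic fibroblast growth factor) and a sample under differentiation (DIFF; the same basal medium with 5% horse serum). The 16 samples thus form 4 groups of 4, and the replicates are cultures of different animals.

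IGF1 is a secreted growth factor that binds the receptor IGF1R. In muscle it favors both the proliferation of myoblasts and their fusion, and it stimulates fiber growth. Secreted binding proteins (IGFBPs) hold IGFs and control their access to the receptor: IGFBP6 prefers IGF2, whereas IGFBP7 binds IGFs weakly and has roles in the matrix. Inside the cell, GRB10 is an adaptor that binds the activated receptor and restrains its signal, which otherwise passes through PI3K and AKT to mTORC1, the driver of protein synthesis, and keeps FOXO1, a transcription factor of atrophy and fasting genes, out of the nucleus.

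Sample totals ran from 1110050 to 1781174 counts, and *RN18S*, the 18S ribosomal RNA, took 6.32 to 20.4% of them. The highest *RN18S* share was that of DMD PROL replicate 4. The 2 technical duplicates of a sample correlated by 0.920 to 0.948 on log2 CPM. *DMD* held 6 counts in every PROL and 12 to 22 in the DIFF libraries of WT, against 24 to 32 and 30 to 48 in those of DMD SCs. These 3′ tags do not report on the deleted exon. As to the labelled cell type, *MYF5*, a factor of myogenic precursors, had no count in the 8 WT libraries and at least 1 count in each of the 8 DMD libraries, and *MYOD1* was without a count in 6 WT libraries and 1 DMD library. Levels are given as CPM, counts scaled to library size with TMM factors, as mean ± SD over 4 animals. A gene was called where edgeR's quasi-likelihood test gave a Benjamini-Hochberg adjusted *p* under 0.05 over all genes tested and an absolute log2 fold change over 0.6, and the ± beside a log2 fold change is an SE that restates that test. The smallest count above 0 was 2, worth 1.09 to 1.54 CPM.

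*IGF1*, the ligand, had its lowest and its highest group mean in DMD SCs. In WT PROL the 4 libraries held 10.2, 9.93, 55.4 and 4.62 CPM, and in DMD PROL 1.23, 5.06, 1.16 and 1.31 CPM. In WT DIFF they held 24.8, 38.3, 66.0 and 46.3 CPM, and in DMD DIFF 157, 141, 108 and 134 CPM. All DMD DIFF libraries were above all other libraries. The means rose from 2.19 ± 1.91 CPM in DMD PROL over 20.0 ± 23.7 (WT PROL) and 43.8 ± 17.2 (WT DIFF) to 135 ± 20.4 (DMD DIFF), and the ranges of neighbors overlapped except for WT DIFF and DMD DIFF.

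From PROL to DIFF, *IGF1* rose in DMD SCs by a log2 fold change of 5.90 ± 0.31 (adjusted *p* = 1.6e-10, edgeR), from 14 counts over 4 libraries to 804. In WT SCs the log2 fold change was 1.06 ± 0.70 (adjusted *p* = 0.260) and was not called. With the animal as a replicate block, a paired fit, it was 1.42 (adjusted *p* = 0.0117) and was called, as it was without WT replicate 3 (2.10, adjusted *p* = 0.00061). The level was higher in DIFF than in PROL in each of the 8 animals, by 0.25 to 3.00 log2 units in WT and by 4.48 to 5.96 in DMD. These per-animal changes did not overlap between genotypes (exact permutation test, two-sided, *p* = 0.0286, the smallest *p* that 4 against 4 allows), and the interaction of genotype and state was 4.84 ± 0.97 (adjusted *p* = 0.0016, edgeR).

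Between genotypes, *IGF1* was higher in DMD DIFF than in WT DIFF by a log2 fold change of 1.61 ± 0.23 (adjusted *p* = 4.0e-05, edgeR). In PROL it did not pass the filter on low counts, with 138 counts over the WT and 14 over the DMD libraries. Without a filter the log2 fold change in PROL was −3.20 ± 0.93 (adjusted *p* = 0.0421, edgeR), among 14.1% of genes called in that fit, and DESeq2 gave −3.20 (adjusted *p* = 0.00099), among 16.6% called. WT replicate 3 held 102 of the 138 WT counts. Without that animal the value was −1.90 (adjusted *p* = 0.0736) and was not called, nor was it without DMD replicate 1 (−3.00, adjusted *p* = 0.168), both fits chosen after seeing the data. With the filter, *IGF1* passed in 5 of the fits that left out an animal and was not called without DMD replicate 1 (−3.01, adjusted *p* = 0.0666), 3 (−2.98, adjusted *p* = 0.0678) or 4 (−3.03, adjusted *p* = 0.0689).

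**Figure D1:**
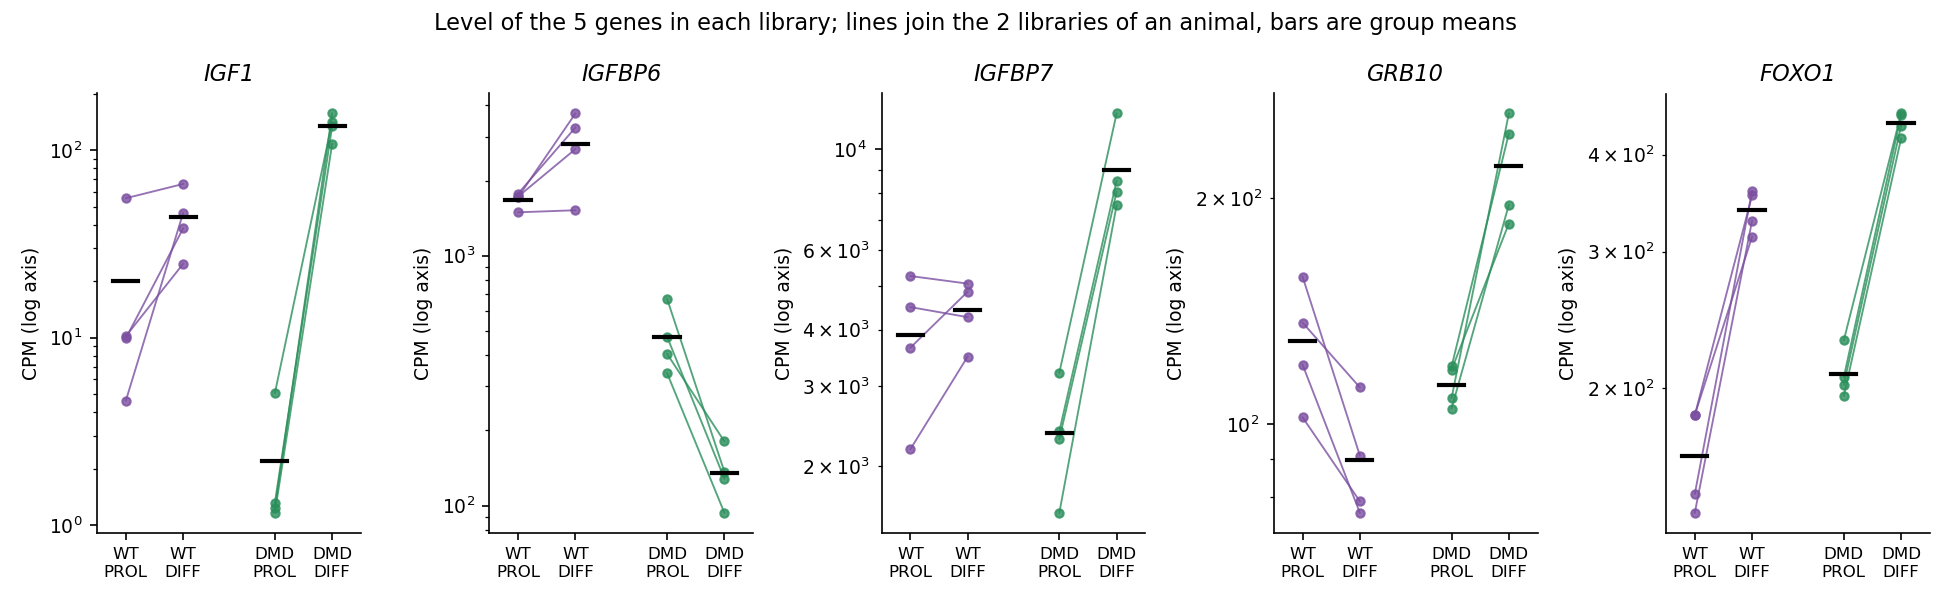
Level in CPM (log axis, one panel per gene) of *IGF1*, *IGFBP6*, *IGFBP7*, *GRB10* and *FOXO1* in each of the 16 libraries, WT in purple and DMD in green. Points are libraries, lines join the PROL and DIFF libraries of an animal and black bars are group means. *IGF1* spans 1.16 to 157 CPM, *IGFBP6* falls in every DMD animal, and *FOXO1* rises in all 8 animals.

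*IGFBP6* was lower in DMD than in WT SCs in both states, and its 8 DMD libraries all lay below its 8 WT libraries. The WT PROL libraries stood at 1492, 1725, 1715 and 1773 CPM, and the DMD PROL libraries at 405, 474, 339 and 672 CPM. The WT DIFF libraries stood at 1521, 2671, 3710 and 3258 CPM, and the DMD DIFF libraries at 181, 128, 93.6 and 137 CPM. The ranges of WT PROL and WT DIFF overlapped, and those of the other neighbors in the order did not. The log2 fold change of DMD against WT was −1.84 ± 0.19 (adjusted *p* = 9.5e-05, edgeR) in PROL, from 1676 ± 125 to 472 ± 144 CPM. In DIFF it was −4.38 ± 0.35 (adjusted *p* = 2.9e-05), from 2790 ± 947 to 135 ± 35.8 CPM.

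With differentiation *IGFBP6* fell in all 4 DMD animals, by a log2 fold change of −1.82 ± 0.26 (adjusted *p* = 0.00054, edgeR). In WT SCs it was higher in DIFF by 0.72 ± 0.25 (adjusted *p* = 0.0445), with per-animal changes of 0.03 to 1.11 log2 units. The opposite directions gave an interaction of −2.54 ± 0.39 (adjusted *p* = 0.00026), and the per-animal changes differed with *p* = 0.0286 in the exact permutation test. The WT change lost its call in 8 of 15 alternatives, with adjusted *p* of 0.0512 with RLE factors, 0.0522 and 0.0535 with either duplicate alone, and 0.0888, 0.177 and 0.181 without WT replicate 2, 3 or 4.

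*IGFBP6* moved in the direction of fibroblast markers between genotypes. Of 7 measured markers of 12, 5 of 6 tested were lower in DMD in PROL and 5 of 7 in DIFF, none higher. *DCN*, a small matrix proteoglycan, was at 1663 ± 371 CPM in WT PROL and 225 ± 41.2 in DMD PROL, and *POSTN*, the matrix protein periostin, at 884 ± 392 and 44.7 ± 15.0. In WT the summed markers reached 8333 to 10121 CPM (PROL) and 21983 to 25087 CPM (DIFF), in DMD 4164 to 4619 CPM (PROL) and 10138 to 13173 CPM (DIFF). Within DMD SCs 4 of 6 tested rose with differentiation and 1 fell while *IGFBP6* fell. The marker that fell was *POSTN*, to 24.1 ± 10.1 CPM (log2 fold change −0.91, edgeR adjusted *p* = 0.0303), and the sum was carried by *COL1A2*, a collagen, at 3231 ± 218 CPM in DMD PROL and 9100 ± 1122 in DMD DIFF. Their part in the result was not tested, and in these bulk cultures fewer cells of a type and less RNA per cell cannot be told apart.

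*IGFBP7* set DMD DIFF apart from the other groups. The WT PROL libraries held 5252, 2175, 4485 and 3647 CPM, the WT DIFF libraries 5053, 3486, 4261 and 4849, the DMD PROL libraries 1575, 2384, 3212 and 2293, and the DMD DIFF libraries 7529, 8519, 12009 and 8059. The other 3 groups overlapped with their neighbors. *IGFBP7* rose with differentiation in DMD SCs by a log2 fold change of 1.92 ± 0.25 (adjusted *p* = 0.00056, edgeR), from 2366 ± 670 to 9029 ± 2027 CPM. In WT SCs the value was 0.17 ± 0.26 (adjusted *p* = 0.644), with a change above 0 in 2 of 4 animals and a negative sign with library size alone as the scale. Relative to the median of all genes it was 0.135, and 0.136 with library size alone.

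In DIFF the level of *IGFBP7* was higher in DMD than in WT SCs by a log2 fold change of 1.02 ± 0.15 (adjusted *p* = 6.5e-05, edgeR). In PROL the difference was −0.73 ± 0.32 (adjusted *p* = 0.148), which was called only without WT replicate 2 (−0.92, adjusted *p* = 0.0324), the WT PROL library of lowest *IGFBP7*. The interaction was 1.75 ± 0.38 (adjusted *p* = 0.0036), and the per-animal changes, −0.07 to 0.68 in WT and 1.81 to 2.26 in DMD, differed with *p* = 0.0286 in the exact permutation test.

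The other IGF-binding proteins of the table did not share a direction. *IGFBP5*, a matrix-bound IGFBP that myoblasts induce on differentiation, rose with differentiation in both genotypes, from 170 ± 83.3 to 548 ± 126 CPM in WT (log2 fold change 1.67, edgeR adjusted *p* = 0.0060) and from 343 ± 142 to 1589 ± 495 in DMD (2.20, adjusted *p* = 0.0030). It was higher in DMD DIFF than in WT DIFF (1.53, adjusted *p* = 0.00094). Its interaction was 0.53 (adjusted *p* = 0.496). *IGFBP4*, which restrains IGF action until a protease cleaves it, was lower in DMD in PROL (−2.30, adjusted *p* = 0.0015) and in DIFF (−1.88, adjusted *p* = 0.0034), with 30 and 28 counts over the 4 DMD libraries. *IGFBP1* held 2 counts and *IGFBP3* 6 in all 16 libraries, and *IGFALS*, the acid-labile subunit, held none, so that these could not be compared. *IGF2*, *IGFBP2* and the insulin receptor gene *INSR* were not analysed here.

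*GRB10*, the receptor adaptor, rose with differentiation in DMD, whereas its change in WT was below 0 and was not called. The WT PROL libraries held 157, 136, 102 and 120 CPM and the WT DIFF libraries 90.8, 112, 78.9 and 76.2. The DMD PROL libraries held 119, 105, 108 and 118 CPM and the DMD DIFF libraries 244, 196, 259 and 185. All DMD DIFF libraries were above all others, and the other 3 groups overlapped with their neighbors. *GRB10* rose in DMD by a log2 fold change of 0.96 ± 0.13 (adjusted *p* = 1.6e-05, edgeR). In WT it was −0.54 ± 0.17 (adjusted *p* = 0.0149), under the fold threshold, with a lower level in DIFF in each of the 4 animals, and was called without WT replicate 2 (−0.64, adjusted *p* = 0.0165).

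The interaction of *GRB10* was 1.50 ± 0.21 (adjusted *p* = 1.3e-05, edgeR), and its per-animal changes, −0.78 to −0.28 in WT and 0.64 to 1.25 in DMD, differed with *p* = 0.0286 in the exact permutation test. In DIFF it was higher in DMD, at 221 ± 36.04 against 89.5 ± 16.3 CPM (log2 difference 1.30 ± 0.15, adjusted *p* = 2.6e-06). In PROL the value was −0.20 ± 0.15 (adjusted *p* = 0.333). With library size alone as the scale the WT change was −0.90 and was called, but the median of all genes was then shifted by −0.35, and relative to the median of all genes it was −0.58 on either scale.

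*FOXO1* rose with differentiation in both genotypes. In PROL the WT libraries held 138, 185, 185 and 146 CPM and the DMD libraries 207, 202, 231 and 196. In DIFF the WT libraries held 329, 314, 355 and 359 CPM and the DMD libraries 449, 436, 452 and 420. No 2 groups overlapped, and the means went from 164 ± 24.8 CPM (WT PROL) over 209 ± 15.3 (DMD PROL) and 339 ± 21.6 (WT DIFF) to 439 ± 14.8 (DMD DIFF).

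The log2 fold change of *FOXO1* from PROL to DIFF was 1.03 ± 0.12 (adjusted *p* = 4.9e-06, edgeR) in WT and 1.06 ± 0.09 (adjusted *p* = 7.5e-08) in DMD, and the level was higher in DIFF in each of the 8 animals. The interaction was 0.02 ± 0.14 (adjusted *p* = 0.924), and the per-animal changes differed by 0.01 log2 units (exact permutation *p* = 0.886). Between genotypes the log2 fold change was 0.34 ± 0.12 (adjusted *p* = 0.0555) in PROL and 0.37 ± 0.09 (adjusted *p* = 0.0024) in DIFF, both under the fold threshold.

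Counted over the 5 genes, DIFF separated the genotypes more often than PROL, as it did over all genes. In PROL 4 genes were tested and 1, *IGFBP6*, was lower in DMD, where 18.2% of 1914 genes were called, 8.36% higher and 9.87% lower. In DIFF 3 of 5 were higher in DMD (*IGF1*, *IGFBP7* and *GRB10*) and 1 was lower, where 33.6% of 1916 genes were called, 16.1% higher and 17.5% lower. With differentiation 2 of 5 were higher in WT DIFF (*IGFBP6* and *FOXO1*), where 32.2% of 1921 genes were called, 17.9% higher and 14.3% lower. That fit was unpaired, and the paired fit also called *IGF1* (1.42, edgeR adjusted *p* = 0.0117). In DMD 4 of 5 rose and *IGFBP6* fell, where 28.4% of 1886 genes were called, 16.0% higher and 12.4% lower. The interaction was called for 3 genes above and 1 below 0, where 23.4% of 2030 genes were called, 10.5% above and 13.0% below. The 5 genes were chosen with earlier results of these data known and the comparisons share libraries, so their shares of calls are given as a description.

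**Figure D2:**
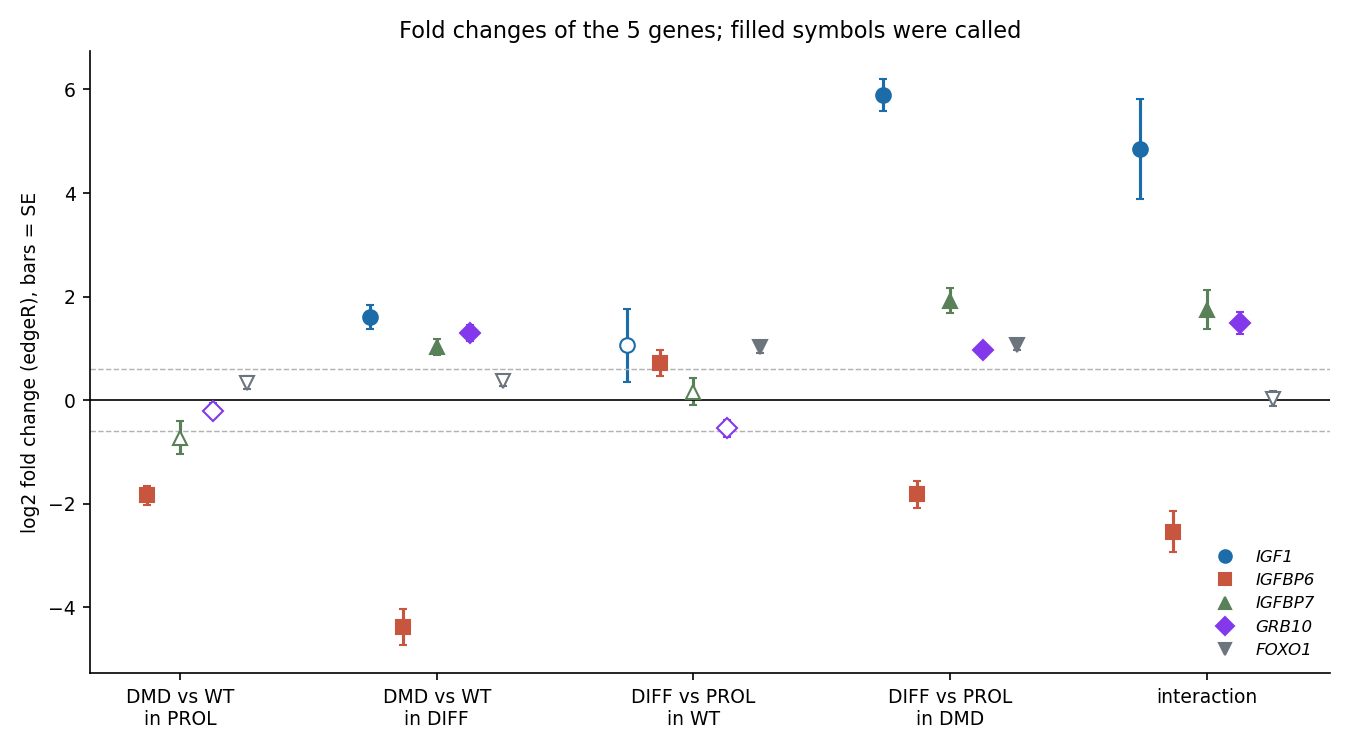
Log2 fold change with its SE of the 5 genes in the 4 comparisons and the interaction of genotype and state (edgeR). Filled symbols were called, and dashed lines mark 0.6 and −0.6. *IGF1* in PROL did not pass the filter and is not drawn. In DMD SCs *IGF1* reached 5.90 with differentiation, while *FOXO1* lay at 1.03 and 1.06 in the 2 genotypes.

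Of the other genes on 11 lists of the pathway, 35 were in the table and 23 were tested in at least 1 comparison. Calls are counted for each comparison, beside the share over all genes. In PROL 0 of 20 tested were higher and 4 lower in DMD, beside 8.36% and 9.87% of all genes. In DIFF 5 of 22 were higher and 8 lower, beside 16.1% and 17.5%. The median log2 fold changes were −0.09 and −0.32 beside −0.0021 and −0.03 over all genes. With differentiation 7 of 21 rose and 2 fell in WT, beside 17.9% and 14.3% of all genes. In DMD 6 of 20 rose and 0 fell, beside 16.0% and 12.4%. The medians were 0.42 and 0.43 beside 0.03 and 0.01. The interaction was called above 0 for 2 and below 0 for 6 of 23, beside 10.5% and 13.0% of all genes. Its median was −0.22 beside −0.04.

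The receptors were rare and were not called. *IGF1R*, which transmits the IGF signal, held 7.20 ± 1.97 (PROL) and 10.5 ± 6.71 CPM (DIFF) in WT and 9.41 ± 3.33 and 8.43 ± 3.08 CPM in DMD, and no comparison was called (edgeR adjusted *p* of 0.395 or more). *IGF2R*, which clears IGF2, was also not called. These genes held 44 to 92 counts over 4 libraries, and the SE of their log2 fold changes was 0.36 to 0.66. Of the growth hormone input only *JAK2* and *STAT5B* were tested and not called, as were *GRB2* and *PTPN1* among the adaptors. *GHR*, the growth hormone receptor, had 16 counts in WT DIFF, 2 in DMD DIFF and none in PROL.

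Among PI3K and AKT genes, *AKT2*, an AKT kinase, was not called in any comparison that tested it. *GSK3B*, a kinase that AKT inhibits, rose in DMD (log2 fold change 0.70, edgeR adjusted *p* = 0.0036) and was higher in DMD DIFF than in WT DIFF (0.75, adjusted *p* = 0.00079).

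The 2 restrainers of mTORC1 output in the table were higher in DMD DIFF than in WT DIFF, *EIF4EBP1* by 1.47 (adjusted *p* = 5.1e-07, edgeR) and *DDIT4* by 0.99 (adjusted *p* = 3.3e-06) on the log2 scale. In PROL *DDIT4* was lower in DMD. *EIF4EBP1*, which blocks cap-dependent translation until mTORC1 phosphorylates it, fell in WT from 343 ± 40.3 to 148 ± 35.9 CPM (log2 fold change −1.24, edgeR adjusted *p* = 1.6e-05) and was 310 ± 33.4 and 411 ± 32.04 CPM in DMD (0.40, under the fold threshold). *DDIT4*, an mTORC1 inhibitor induced by stress and hypoxia, fell in WT (−0.70, adjusted *p* = 0.00024) and rose in DMD (1.35, adjusted *p* = 2.6e-07). The interaction was 1.62 (adjusted *p* = 9.1e-07) for *EIF4EBP1* and 2.05 (adjusted *p* = 2.1e-08) for *DDIT4*. *RHEB*, which activates mTORC1, was not called.

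*SGK1* and *SIRT1*, whose products modify FOXO proteins, rose with differentiation in WT and were not called between the DMD states, and their interactions were below 0. *SGK1*, a kinase that like AKT phosphorylates FOXO proteins, rose with differentiation in WT from 81.0 ± 17.5 to 928 ± 126 CPM (log2 fold change 3.49, edgeR adjusted *p* = 6.7e-10). In DMD it stood at 26.9 ± 11.1 and 20.6 ± 2.74 CPM (−0.40, adjusted *p* = 0.299). *SIRT1*, a deacetylase of FOXO proteins, rose in WT (0.82, adjusted *p* = 0.0016) and was at −0.25 (adjusted *p* = 0.318) in DMD. The interaction was −3.91 (adjusted *p* = 1.8e-08) for *SGK1* and −1.08 (adjusted *p* = 0.0029) for *SIRT1*.

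Of 9 known target genes of FOXO factors in the table, 1 of 8 tested was higher and 5 were lower in DMD DIFF, with a median log2 fold change of −1.18 beside −0.03 over all genes, of which 33.6% were called. In WT 4 of 7 rose with differentiation, beside 17.9% of all genes, in DMD 3 of 6, beside 16.0%, and none fell in either. *CAT*, the peroxide-degrading catalase, went from 231 ± 10.4 to 3057 ± 630 CPM in WT (3.71, edgeR adjusted *p* = 7.8e-11) and from 166 ± 22.3 to 271 ± 19.9 in DMD (0.70, adjusted *p* = 0.00010). *TXNIP*, an inhibitor of thioredoxin and of glucose uptake, went from 103 ± 31.3 to 1029 ± 172 CPM in WT and from 19.2 ± 10.3 to 83.4 ± 6.80 in DMD. *PDK4*, which restrains pyruvate oxidation in fasting, was at 117 ± 38.6 CPM in WT DIFF and at 2.89 ± 2.38 in DMD DIFF (−5.25, adjusted *p* = 3.4e-07).

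The muscle atrophy ubiquitin ligases among these targets split. *FBXO32* (atrogin-1) rose in WT from 11.9 ± 6.79 to 49.1 ± 11.5 CPM (log2 fold change 2.04, edgeR adjusted *p* = 0.00012) and was lower in DMD DIFF, at 27.01 ± 8.77 CPM (−0.86, adjusted *p* = 0.0136; not called without WT replicate 1 or with the first duplicate alone). *TRIM63* (MuRF1) was higher in DMD DIFF, at 37.9 ± 7.42 CPM against 2.02 ± 1.35 in WT DIFF (4.15, adjusted *p* = 1.1e-06), the latter from 12 counts over 4 libraries. *SOD2*, the mitochondrial superoxide dismutase, was lower in DMD DIFF (−1.39, adjusted *p* = 0.0099), whereas *GABARAPL1* (−0.97, adjusted *p* = 0.115) and *MAP1LC3B* (0.23, adjusted *p* = 0.0724), both of autophagy, were not called.

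**Figure D3:**
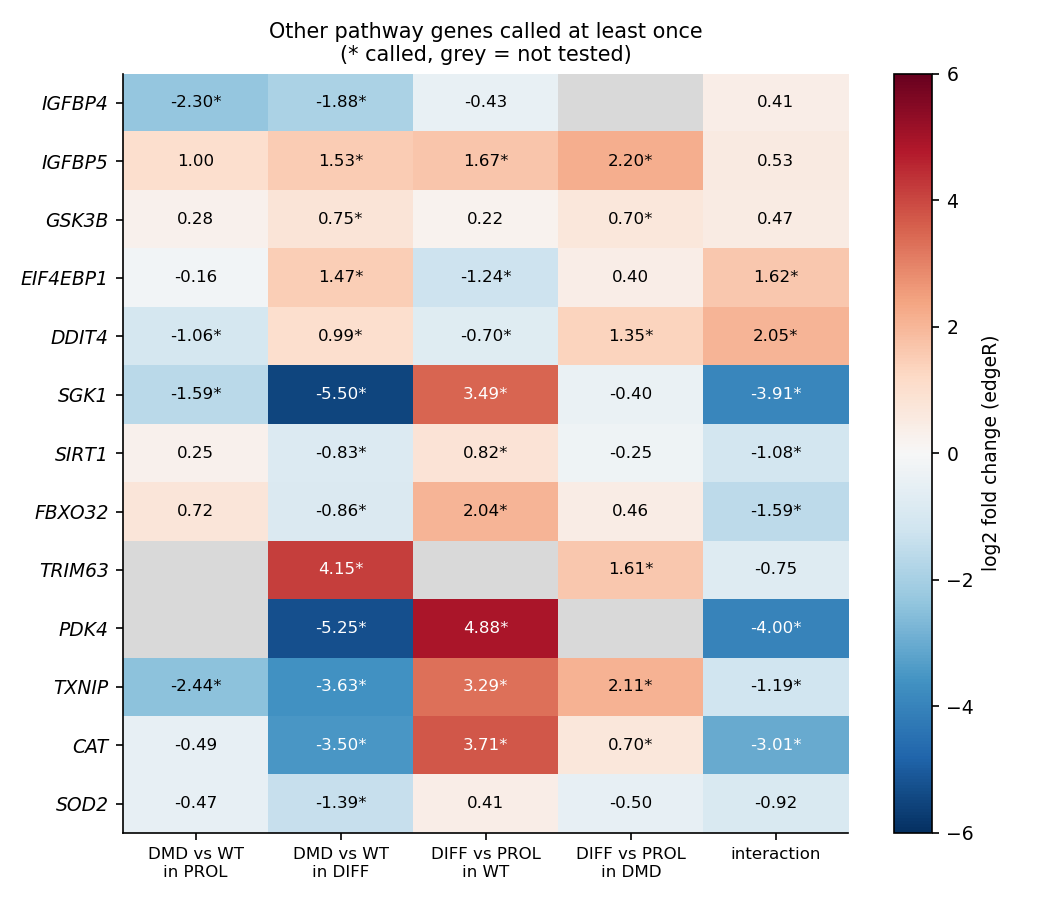
Log2 fold changes (edgeR) of the other pathway genes called at least once. Rows are ordered by role from binding proteins to FOXO target genes, and columns are the 4 comparisons and the interaction. Red is higher and blue lower, an asterisk marks a call, and grey was not tested. *SGK1*, *PDK4*, *TXNIP* and *CAT* are strongly blue in DMD against WT in DIFF (−5.50 to −3.50) and red in WT with differentiation (3.29 to 4.88), and *TRIM63* is red in DIFF (4.15).

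*IGF1*, *IGFBP7* and *GRB10* were highest in DMD DIFF, and so were the smooth muscle markers *ACTA2*, *TAGLN* and *CNN1*. Of 4 measured markers of 9 for smooth muscle and pericytes, all 3 tested were higher in DMD DIFF than in WT DIFF and all 3 tested rose with differentiation in DMD, among them *ACTA2* (smooth muscle actin) from 830 ± 69.0 to 11649 ± 879 CPM. *RGS5*, the pericyte marker in the table, was instead highest in WT PROL (105 ± 79.8 CPM) and held 4.29 ± 4.55 (DMD DIFF), 4.91 ± 3.71 (DMD PROL) and 5.81 ± 3.30 CPM (WT DIFF) elsewhere. The sum of the 4 reached 15803 to 20383 CPM in DMD DIFF, while in the other groups it was 1849 to 2379 (DMD PROL), 1952 to 3189 (WT PROL) and 1512 to 3472 (WT DIFF). In PROL 2 of 4 were lower in DMD, and the sums of the genotypes overlapped. The *IGFBP7* and *GRB10* levels of the genotypes overlapped there too. So did those of *IGF1*, with means of 20.0 ± 23.7 CPM in WT and 2.19 ± 1.91 CPM in DMD. The part of these markers in the results was not tested.

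Muscle markers, 8 of 13 measured, had sums of 202 to 275 CPM (PROL) and 1997 to 3395 CPM (DIFF) in WT. In DMD the sums were 4024 to 6358 CPM (PROL) and 13365 to 15043 CPM (DIFF). Like *IGF1*, *IGFBP7*, *GRB10* and *FOXO1*, these sums were highest in DMD DIFF. All 5 muscle markers tested in PROL and all 6 in DIFF were higher in DMD, and the part of these markers was not tested either. Endothelial markers, 5 of 10 measured, summed to 78.4 to 163 CPM in WT and 16.0 to 50.4 in DMD libraries, after depletion of CD31+ cells. In WT PROL the largest part was *ERG* (105 ± 15.3 CPM), beside *ENG* (28.7 ± 10.0) and *PECAM1*, the CD31 gene (19.8 ± 3.10). *VWF* held 4 counts and *CLDN5* 2 in all. Blood markers, 5 of 8 measured, summed to 18.2 to 72.8 CPM with *HBB* and *CD3E* without a count, and adipocyte markers, 5 of 7 measured, to 2.17 to 25.0 CPM with *ADIPOQ* and *LPL* without a count.

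**Figure D4:**
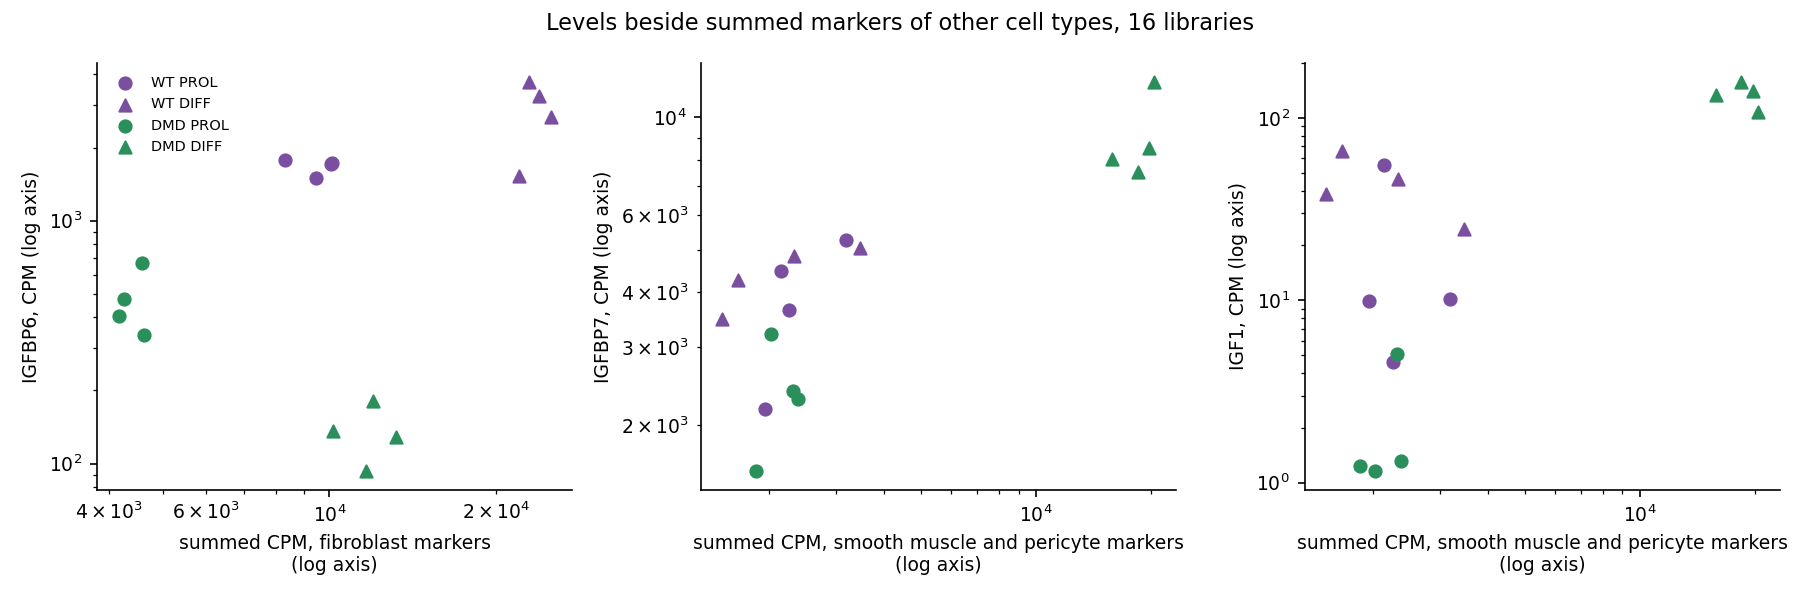
Level of *IGFBP6* against summed fibroblast markers, and of *IGFBP7* and *IGF1* against summed smooth muscle and pericyte markers, in CPM on log axes, for 16 libraries (WT purple, DMD green, circles PROL, triangles DIFF). The DMD DIFF libraries hold the lowest *IGFBP6* (93.6 to 181 CPM) and the highest *IGFBP7*, *IGF1* and smooth muscle sums. Their fibroblast sums were 10138 to 13173 CPM, and those of WT PROL 8333 to 10121 CPM. By group mean *COL1A2* and *MFAP5* were higher in DMD DIFF than in WT PROL. *DCN*, *LUM* and *POSTN* were lower, and *COL3A1* and *THY1* were close.

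Genes with the most similar pattern were taken by Pearson's *r* of log2 CPM over the 16 libraries, which share 4 groups, among 1540 other genes with at least 20 mean CPM. Nearest to *IGF1* were *MCL1*, an anti-apoptotic protein (0.94), *CTSB*, a lysosomal protease (0.91), and *GPX4*, which removes lipid peroxides (0.91). *IGFBP6* was followed most closely by *S100A10* (0.96), *FCGRT*, the neonatal Fc receptor (0.94), and *POSTN* (0.93), and *IGFBP7* by *CNN1*, the smooth muscle calponin (0.94), *MYL9*, a myosin light chain of smooth muscle (0.93), and *DKK3* (0.93). For *GRB10* they were *MSN* (moesin), *GHITM* and *CD97* (each 0.90), and for *FOXO1* *SEPW1*, a selenoprotein (0.97), *C18H7orf41* (0.96) and *MTCH1* (0.95). None of the 15 was on a pathway list.

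The technical duplicates bound how finely single libraries can be read. In libraries with at least 20 counts, the duplicates of a library differed by a median of 0.11 log2 units for *IGF1*, 0.12 for *IGFBP6*, 0.09 for *IGFBP7*, 0.27 for *GRB10* and 0.22 for *FOXO1*. For *IGF1* these were 9 libraries, none of DMD PROL, where it held 2 to 8 counts. For the other genes they were all 16. The largest gap was 1.11, for *IGF1* in WT DIFF replicate 1. The gaps of *GRB10* and *FOXO1* were thus below their PROL to DIFF changes in DMD. In WT the smallest *GRB10* change, −0.28, was near its median gap of 0.27.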

How the data were processed

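Satellite cells of 8 piglets were profiled by 3′ mRNA-seq (25 ng total RNA, UMIs, 2 technical duplicates a sample) in 2 states. According to the submitters' processing notes and the methods, the authors used bcl2fastq for demultiplexing, FastQC and MultiQC for quality control, UMI-tools for deduplication, and STAR 2.7.10b on susScr3 for alignment and counts per gene. The annotation and the strand setting are not given in the sources used here. The deposited values are raw counts of reads per gene. All 124000 values were even, which the sources do not explain, and the 32 columns were all used. The methods give 10 days of differentiation for RNA samples and 7 in the culture section.

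Here duplicates were added, and samples were grouped by the labels. In R 4.3.3, edgeR 4.0.16 was used with filterByExpr (minimum count 10, minimum total 15), TMM, robust glmQLFit and glmQLFTest on the libraries compared (8; interaction 16). Scripts were tested on simulated data. CPM use TMM factors over 16 libraries, log2 CPM a prior count of 2, and per-animal changes an exact permutation test in scipy 1.17.1. The same animals gave both states, so the labels pair them; within an animal the deviations from group means had an r of 0.0998 to 0.172, and in 8 of 8 animals no other pairing had a higher one. Genotypes share only replicate numbers. Named genes were the 5 genes, pathway list genes called in at least 1 comparison, and the 3 most alike in pattern by Pearson's r. Some pathway genes are not reported here and are left out of the list counts. Genes named as too low to test or not called were added afterwards. The 5 genes and all lists were chosen with earlier results of these data known. Alternatives were RLE factors, library size alone, DESeq2 1.42.0, no or a stricter filter (minimum 20), single duplicates, halved counts, no RN18S, 16 libraries in 1 fit, a replicate block and leaving out each animal. Gene coordinates and sequences were not used here.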

Additional observations from a re-analysis of the deposited data

Results flagged for a closer look

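Libraries that stood apart from the other 3 of their group were looked for in 72 combinations of gene and group, and 6 were found. Chance alone marks about 1 in 20 where values are normally distributed. That rate need not hold at a few counts, as for *TRIM63* in WT and *IGF1* in DMD PROL. *IGF1* stood at 55.4 CPM in WT PROL replicate 3, where the others held 4.62 to 10.2 CPM, and at 5.06 CPM in DMD PROL replicate 2, where the others held 1.16 to 1.31 CPM. The former animal also had the highest *IGF1* of WT DIFF, 66.0 CPM. The other 4 were *DDIT4* (501 CPM against 366 to 386) and *TXNIP* (93.6 CPM against 79.3 to 81.1) in DMD DIFF replicate 3, and *TRIM63* in WT PROL replicate 1 (1.46 CPM, the only WT PROL library with a count) and in WT DIFF replicate 2 (0 CPM against 2.59 to 2.75).

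The effect of differentiation differed between genotypes, by the edgeR interaction of genotype and state, for 4 of the 5 genes. Over all genes 23.4% of 2030 were called, 10.5% above and 13.0% below 0. The log2 values were 4.84 for *IGF1* (adjusted *p* = 0.0016), −2.54 for *IGFBP6* (adjusted *p* = 0.00026), 1.75 for *IGFBP7* (adjusted *p* = 0.0036) and 1.50 for *GRB10* (adjusted *p* = 1.3e-05). Among the other pathway genes the interaction was above 0 for *EIF4EBP1* (1.62) and *DDIT4* (2.05). It was below 0 for *SGK1* (−3.91), *SIRT1* (−1.08), *FBXO32* (−1.59), *PDK4* (−4.00), *TXNIP* (−1.19) and *CAT* (−3.01). The call was lost in 8 of 18 alternatives for *TXNIP*, 5 of which left out an animal (WT replicate 1 or 2, DMD replicate 2, 3 or 4), with values of −1.29 to −0.96 without them. For *PDK4* it was lost in 5 of 18, 3 of which left out an animal (WT replicate 2, DMD replicate 1 or 2), with values of −4.06 to −3.31.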

How the results depend on the processing

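Of 422 fold changes of the 5 genes under alternatives, 402 kept their direction and their side of the thresholds, and the number of genes called in a comparison stayed within 1.5 times of its value in all 86 alternatives. The causes of the exceptions were not tested beyond what the settings themselves change. The *IGFBP6* call between the WT states was lost with RLE factors (0.70), library size alone (0.37), no filter (0.70), the first (0.73) or the second duplicate (0.69), and ranged from 0.56 to 0.87 when an animal was left out. Relative to the median of all genes the *IGFBP6* change between the WT states was 0.69, with TMM factors and with library size alone. *GRB10* was called there with library size alone (−0.90), the first duplicate (−0.73) and without WT replicate 2 (−0.64, the lowest of −0.64 to −0.45 without an animal). With the second duplicate its edgeR adjusted *p* was 0.125 (−0.40). *IGF1* was called there under the replicate block (1.42) and without WT replicate 3 (0.73 to 2.10 over the animals left out). *IGFBP7* between the WT states had −0.18 with library size alone, and 0.136 relative to the median of all genes on that scale. Between genotypes in PROL, *IGFBP7* ranged from −0.92 to −0.55 without an animal, and *IGF1* without a filter from −3.98 to −1.90, not called without WT replicate 3 (−1.90) or DMD replicate 1 (−3.00). The uncalled *FOXO1* interaction was −0.066 with the first duplicate and −0.071 to 0.11 without an animal, below 0 without WT replicate 2 or 3.

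In PROL 2 of the 5 genes were called with DESeq2 (beside 16.6% of all genes), without a filter (14.1%) and with 16 libraries in 1 fit. Without an animal the number called was 1 to 2. It was 1 between the WT states with RLE factors, without a filter and with the second duplicate, and 1 to 2 without an animal. Under the replicate block *IGF1* was called there in addition to *IGFBP6* and *FOXO1*. Library size alone moved the median of all genes by −0.15 in PROL, 0.14 in DIFF, −0.35 between the WT states and 0.28 in the interaction, and the per-animal difference between genotypes to 1.75 for *GRB10* and 0.30 for *FOXO1*. The replicate block, paired by animal, changed no other call of the 5 genes; between genotypes it rests on a shared number only. Of 690 alternatives for other pathway genes, 22 lost the call and none turned the direction, 13 of them in the interaction of *PDK4* or *TXNIP*. Of the 3 genes most like each of the 5, 0 to 2 remained under Spearman's rho and 1 to 3 with library size alone. Counts of 2 to 8 in DMD PROL limit what can be said of *IGF1* there.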
